A study of Mus musculus with 4 samples.

Results

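Aminoacyl-tRNA synthetases are the enzymes that join each amino acid to its transfer RNA. Their transcripts were examined in mouse jejunal crypts, the pits of the small intestine that hold its stem cells, after loss of Yy1. The set lists 38 genes by name: 21 cytosolic enzymes, 15 mitochondrial enzymes, and Aimp1 and Aimp2, which hold cytosolic enzymes together in the multisynthetase complex. A gene was measured where the array annotation tied at least 1 probe set to it alone (or to its newer symbol, as Mars1 for Mars), and the probe set with the highest mean over the arrays stood for it. By this rule 37 of the 38 were measured, among 18193 genes in all. They were 20 cytosolic enzymes, 15 mitochondrial enzymes and both scaffold proteins. Dars, the cytosolic aspartate enzyme, had no listed probe set of its own and was not analysed here.

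The 4 Affymetrix arrays came from 2 knockout and 2 control preparations, which the sample titles call biological replicates. The knockout mice carried floxed YY1 alleles (YY1f/f) and Vil-Cre-ERT2, a Cre recombinase that tamoxifen activates and that the Villin promoter restricts to the gut epithelium. The other mice are labelled control. All 4 samples share 1 treatment label, which gives tamoxifen for 4 days and can be read as covering both groups or the knockout mice alone. The labels do not give the age of the mice or whether control mice carried Cre, so an effect of Cre and that of losing Yy1 cannot be told apart, nor one of tamoxifen if the control mice had none. All 4 samples carry the strain label C57BL/6J enriched, and crypts were detached with EDTA and filtered before RNA extraction. Values are linear intensities, 1 per probe set and array. Differences are knockout minus control on log2(intensity + 16), given ± SE with n = 2 arrays a group, and a gene passed the test at an adjusted p under 0.05 by limma, adjusted over all genes with the Benjamini-Hochberg method.

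Each synthetase recognises 1 amino acid and the matching transfer RNAs, and the charged RNA is then carried to the ribosome by an elongation factor. Mammalian cells run this step in the cytosol and again inside mitochondria, where a separate set of enzymes, encoded in the nucleus and mostly named with the ending 2, serves the proteins of the mitochondrial genome. The genes Gars and Kars make the enzymes of both compartments. In the cytosol several synthetases are bound in the multisynthetase complex, and many cytosolic synthetase genes are known targets of ATF4, the transcription factor of the amino acid stress response. YY1 is a zinc finger transcription factor, and crypts hold the dividing cells of the intestine, which make protein at a high rate.

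Yy1 itself had intensities of 139.7 and 142 in the knockout arrays, against 1051 and 1007 in the control arrays (log2 difference -2.74 ± 0.10, limma adjusted p = 0.000101). Whether this probe set lies in the floxed part of Yy1 was not analysed here. Array medians lay between 138.7 and 142.9, and the median of 27 bacterial control probe sets, taken as a measure of background, lay between 31.9 and 35.6. The RNA quality controls differed between the groups, by more for Gapdh than for Actb. For the Gapdh control probe sets the log2 intensity of the 3' end minus that of the 5' end was 1.71 and 1.65 in the knockout arrays, against 1.44 and 1.40 in the control arrays. For Actb it was 0.33 and 0.29 in the knockout arrays, against 0.28 and 0.24 in the control arrays. The preparations also differed in their markers of cell state. Of 8 general epithelial genes none rose and 2 fell (summed intensity 36390 to 41470 in knockout arrays, against 44200 to 45250 in control arrays). Of 11 enterocyte genes none rose and 7 fell (summed intensity 45060 to 63610 in knockout arrays, against 83920 to 85640 in control arrays). Of 9 genes of dividing cells 5 rose and none fell (22890 to 23260 in knockout arrays, against 17170 to 17430 in control arrays). Of 7 goblet cell genes 2 fell, of 6 tuft cell genes 3 fell, of 7 enteroendocrine genes 2 rose and 1 fell, and of 5 Paneth cell genes 1 rose. Over all genes 13.4% rose and 11.0% fell. The median log2 differences of the enteroendocrine and Paneth lists, both -0.01, were near 0. Stromal genes, 8 in all, summed to 994 to 1198 in knockout arrays, against 1263 to 1343 in control arrays, and 2 of them fell. Immune genes, 8 in all, summed to 10050 to 11080 in knockout arrays, against 10860 to 11090 in control arrays, and 2 of them fell. The part of RNA quality and of cell makeup in the differences below was not tested. In these bulk samples fewer cells of a type and less RNA per cell cannot be told apart.

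Most synthetase transcripts were higher in Yy1 knockout crypts, and the cytosolic and mitochondrial sets differed in how uniform this was. Of the 37 measured genes, 24 rose and 3 fell, where 13.4% of all genes rose and 11.0% fell. Of 20 cytosolic enzymes 16 rose (80.0%) and none fell, with a median log2 difference of 0.73. Of 15 mitochondrial enzymes 6 rose (40.0%) and 3 fell (20.0%), with a median of 0.33, which was 0.51 when knockout replicate 2 was left out and 0.17 when each gene's dimmest probe set was taken. Both scaffold proteins rose. Over all genes the median log2 difference was 0.01. In 31 members both knockout arrays were above both control arrays, and in 4 both were below, against 32.7% and 29.3% of all genes. Of the 37 members 24 had several probe sets. Among 16 risen members with several probe sets, 11 had another that rose and 0 had one that fell.

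**Figure D1:**
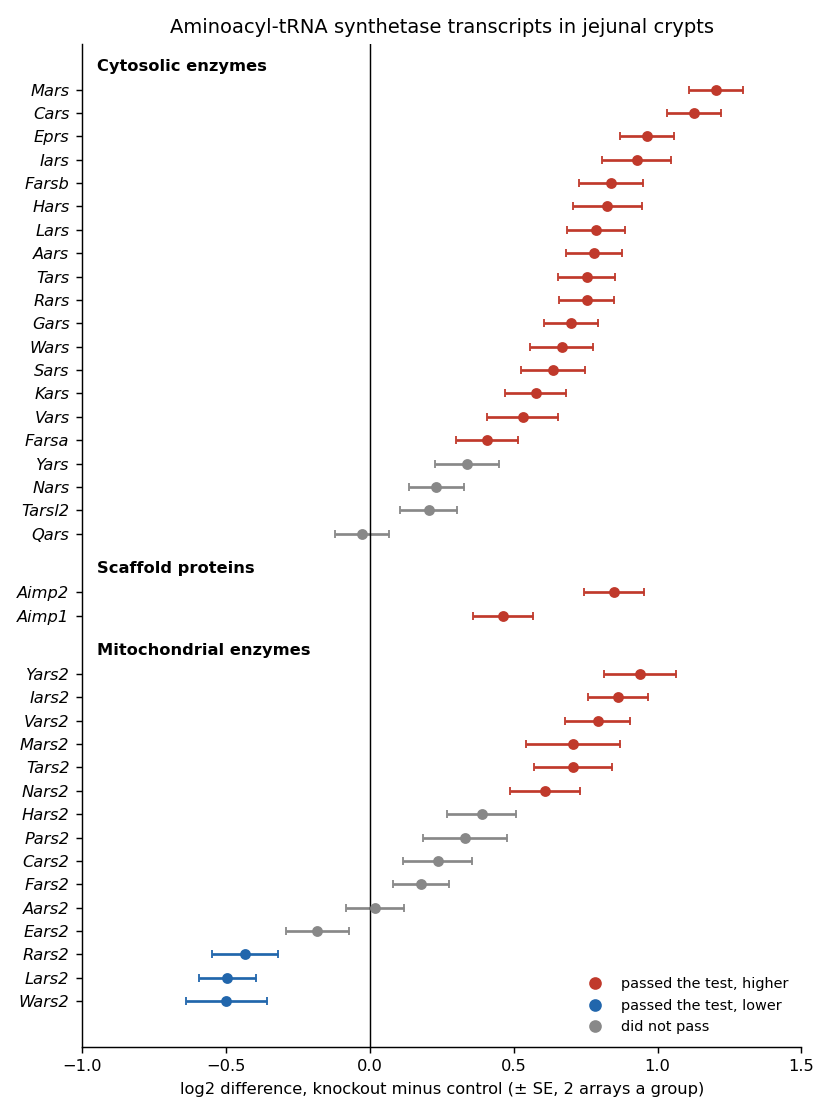
Each point is the log2 difference, knockout minus control, of 1 gene on log2(intensity + 16), with its SE, grouped into cytosolic enzymes, scaffold proteins and mitochondrial enzymes, and coloured by whether it passed the test. The cytosolic points run between -0.03 (Qars) and 1.20 (Mars), and the mitochondrial points between -0.50 (Wars2) and 0.94 (Yars2).

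The promoters of the members were searched for 2 sequence motifs on both strands, over 250 bases before and 50 bases after the annotated transcript start (RefSeq sequences, build GRCm38.p6). The motifs were the YY1 core GCCATNTT and the ATF4 element TGATGNAA, and they do not overlap each other in the windows shown. A promoter was in the table for 29 of the 38 listed genes, Dars included. Those not in it were Cars, Hars, Lars, Nars, Rars, Vars, Wars, Pars2 and Hars2. The YY1 core was found in 4 of 13 mitochondrial promoters, 1 of 14 cytosolic promoters and 0 of 2 scaffold promoters, against 7.0% of 27025 genes. The ATF4 element was found in 5 of 14 cytosolic promoters and 0 of 13 mitochondrial promoters, against 4.5% of those genes. A match is only a run of letters, and binding was not measured.

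The 4 mitochondrial promoters with a YY1 core are shown from base -70 to base 30 around the start, 5′ to 3′ on the gene's strand, because 3 of these genes are among those that changed and they changed in different directions. Capitals mark the match, which in all 4 lies on the opposite strand and just after the start: at bases 21 to 28 in Lars2, 7 to 14 in Wars2, 17 to 24 in Yars2 and 20 to 27 in Aars2 (counted from the first of its 2 annotated starts). Lars2 and Wars2 fell, Yars2 rose and Aars2 did not pass the test, with log2 differences of -0.50, -0.50, 0.94 and 0.02. The windows are chr9:123366857-123366956 for Lars2, chr3:99141020-99141119 for Wars2, chr16:16302895-16302994 for Yars2 and chr17:45506762-45506861 for Aars2, all on the plus strand.
Lars2: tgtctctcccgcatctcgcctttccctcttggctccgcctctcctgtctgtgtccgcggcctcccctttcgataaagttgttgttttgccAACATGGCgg
Wars2: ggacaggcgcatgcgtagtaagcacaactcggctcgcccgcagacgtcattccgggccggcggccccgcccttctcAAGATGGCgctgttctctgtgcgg
Yars2: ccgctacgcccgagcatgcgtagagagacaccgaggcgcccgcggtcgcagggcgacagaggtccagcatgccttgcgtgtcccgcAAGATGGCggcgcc
Aars2: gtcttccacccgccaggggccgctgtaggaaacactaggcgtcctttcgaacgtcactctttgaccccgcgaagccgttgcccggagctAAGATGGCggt

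The 5 cytosolic promoters with an ATF4 element are shown in the same window, since 4 of these genes rose. The match lies at bases -15 to -8 in Tars, -30 to -23 in Gars, 8 to 15 in Iars, 10 to 17 in Aars and 4 to 11 in Yars, on the opposite strand except in Yars. Aars holds another match further upstream, at bases -112 to -105, outside the window. Tars, Gars, Iars and Aars rose, with log2 differences of 0.75, 0.70, 0.93 and 0.78, and Yars, at 0.34, did not pass the test. Eprs, Mars, Kars, Sars, Farsa and Farsb also rose and had no match to these letters. Farsa instead held 2 YY1 cores, at bases -94 to -87 and -49 to -42. The windows are chr15:11399629-11399728 on the minus strand for Tars, and on the plus strand chr6:55037931-55038030 for Gars, chr13:49682060-49682159 for Iars, chr8:111033772-111033871 for Aars and chr4:129189833-129189932 for Yars.
Tars: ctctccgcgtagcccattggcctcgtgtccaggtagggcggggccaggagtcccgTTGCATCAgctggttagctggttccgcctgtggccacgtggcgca
Gars: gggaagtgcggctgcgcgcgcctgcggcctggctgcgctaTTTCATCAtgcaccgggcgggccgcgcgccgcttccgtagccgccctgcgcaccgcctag
Iars: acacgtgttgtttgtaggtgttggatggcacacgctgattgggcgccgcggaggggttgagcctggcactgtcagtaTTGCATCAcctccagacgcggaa
Aars: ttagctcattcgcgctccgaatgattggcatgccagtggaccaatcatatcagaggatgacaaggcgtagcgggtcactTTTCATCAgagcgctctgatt
Yars: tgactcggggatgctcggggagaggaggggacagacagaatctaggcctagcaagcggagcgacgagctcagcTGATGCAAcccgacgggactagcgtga

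**Figure D2:**
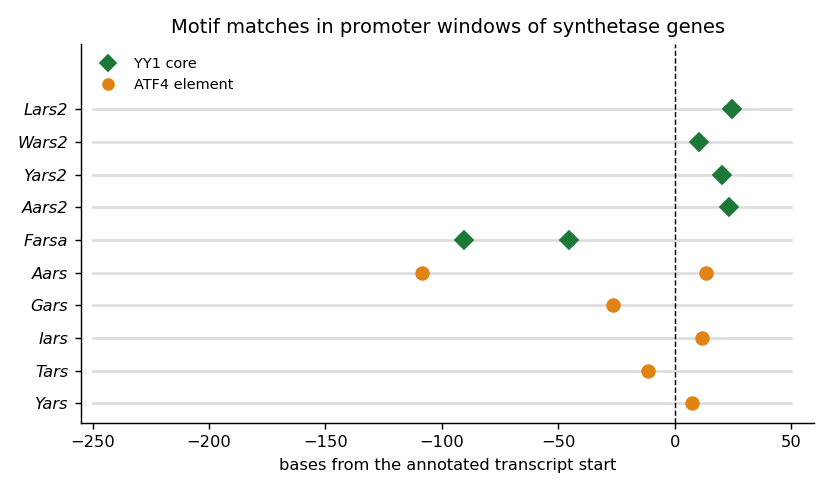
Position of each motif match in the promoter window of the 10 members that hold one, in bases from the annotated transcript start (dashed line), with diamonds for the YY1 core and circles for the ATF4 element. The YY1 cores of the 4 mitochondrial genes sit within the first 30 bases after the start, and those of Farsa lie before it.

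Mars, the cytosolic methionine enzyme that also charges the initiator transfer RNA, showed the largest rise of the 37 genes. It had 2130.4 and 2073 in knockout arrays, against 906 and 903 in control arrays (log2 difference 1.20 ± 0.09, 2.30-fold, limma adjusted p = 0.000639). Both knockout arrays lay far above both control arrays, and the replicates lay close together. Cars, the cysteine enzyme, had 567.5 and 565 in knockout arrays, against 245 and 256 in control arrays (1.13 ± 0.09, adjusted p = 0.0008). A dim probe set of Cars, at 74.0 to 92.7, gave 0.08 ± 0.12. Eprs, a fused enzyme for glutamate and proline, had 2857 and 2799 in knockout arrays, against 1425 and 1462 in control arrays (0.96 ± 0.09, adjusted p = 0.00113). Of its 4 probe sets the dimmest, at 40.8 to 66.6, gave 0.36 ± 0.12 and did not pass the test.

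Eprs and Mars are subunits of the multisynthetase complex, as are the isoleucine, leucine, arginine, lysine and glutamine enzymes. Of the 9 measured genes of this complex 8 rose (88.9%) and none fell, with a median log2 difference of 0.79. Over all genes 13.4% rose and 11.0% fell. The share in the complex was near the 80.0% of all measured cytosolic enzymes that rose. Iars, the isoleucine enzyme, had 1486 and 1319 in knockout arrays, against 792 and 670.4 in control arrays (0.93 ± 0.12, adjusted p = 0.00272). Lars, the leucine enzyme, which also senses leucine for mTORC1 signalling, had 1808 and 1653 in knockout arrays, against 1009.7 and 982 in control arrays (0.79 ± 0.10, adjusted p = 0.00251). Rars, the arginine enzyme, had 4031.5 and 4097 in knockout arrays, against 2479 and 2333.5 in control arrays (0.75 ± 0.10, adjusted p = 0.00256). In each of these genes the groups stood well apart. Kars, the lysine enzyme, rose by 0.58 ± 0.11 on the log2 scale, with adjusted p = 0.00908, or 0.0639 without control replicate 1.

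Both scaffold proteins rose, Aimp2 by more than Aimp1. Aimp2 had 981.5 and 881 in knockout arrays, against 524 and 496 in control arrays (0.85 ± 0.10, adjusted p = 0.00226), and its other probe set rose by 0.84 ± 0.11. Aimp1 had 2300.2 and 2113 in knockout arrays, against 1665 and 1529 in control arrays (0.46 ± 0.10, adjusted p = 0.0181). The Aimp1 call was lost in 3 of the 4 fits with 1 array left out, at adjusted p between 0.058 and 0.122. Eef1e1, the smallest scaffold protein of the complex and not among the listed members, had 1019 and 809 in knockout arrays, against 562 and 495 in control arrays (0.77 ± 0.14, adjusted p = 0.0077).

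Qars, the glutamine enzyme of the complex, was the exception. It had 3321 and 3415 in knockout arrays, against 3396 and 3471 in control arrays, so that the groups overlapped. The log2 difference was -0.03 ± 0.09 (95% interval -0.25 to 0.20, adjusted p = 0.875), and with quantile normalization it was 0.01. Its other probe sets lay between -0.13 and 0.04. Its interval lies below those of the 8 complex genes that rose, of which that of Aimp1 begins lowest, at 0.22. A difference between genes was not itself tested.

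**Figure D3:**
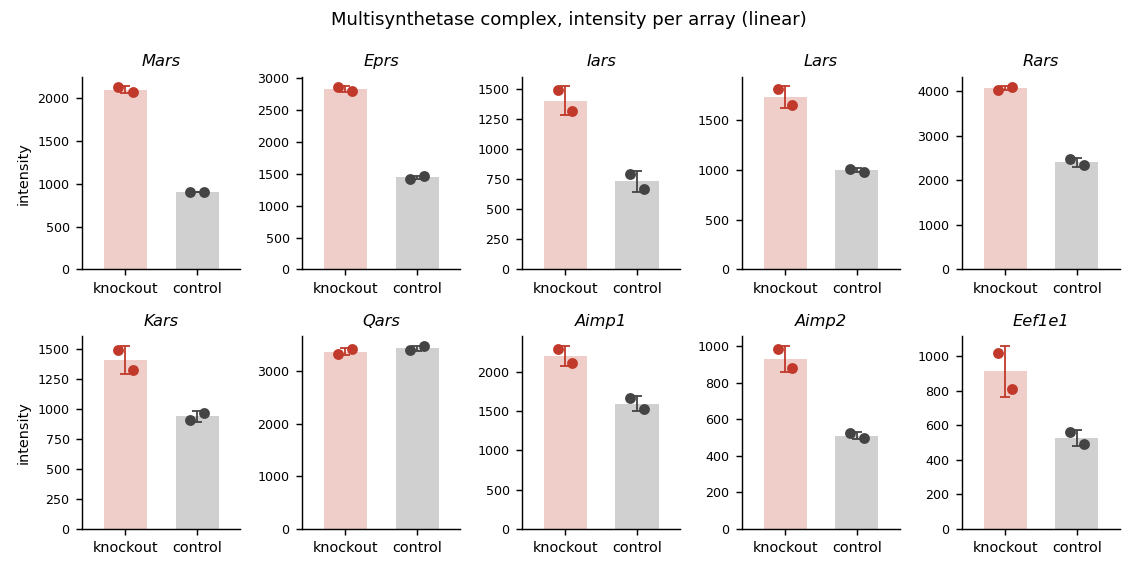
Linear intensity in each knockout and control array for 9 genes of the multisynthetase complex and Eef1e1, with bars at the group mean and error bars of 1 SD (n = 2). In 9 of the 10 panels both knockout points lie above both control points, and in Qars, at 3321 to 3471, the points overlap. Over all genes 32.7% had both knockout arrays above both control arrays.

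Outside the complex, 2 more cytosolic enzymes had the smallest p among those that rose. Aars, the alanine enzyme, had 1014 and 1065 in knockout arrays, against 615 and 584 in control arrays (0.78 ± 0.10, adjusted p = 0.00239). Tars, the threonine enzyme, had 1752 and 1622 in knockout arrays, against 1013 and 973 in control arrays (0.75 ± 0.10, adjusted p = 0.00277). Neither overlapped between the groups, where 32.7% of all genes had both knockout arrays above both control arrays.

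The other 7 cytosolic genes that rose were Farsb (0.84 ± 0.11), Hars (0.83 ± 0.12), Gars (0.70 ± 0.09), Wars (0.67 ± 0.11), Sars (0.64 ± 0.11), Vars (0.53 ± 0.12) and Farsa (0.41 ± 0.11). They charge phenylalanine (Farsa and Farsb, the 2 subunits of 1 enzyme), histidine, glycine, tryptophan, serine and valine. Their adjusted p by limma lay between 0.00288 and 0.0338. The call of Farsb was lost, with a log2 difference of 0.28, when probe sets with names ending in _s_at or _x_at were left out. Another probe set then stood for it. A dimmer one, also kept in that setting, gave 0.84 ± 0.11 and passed over all probe sets (limma adjusted p = 0.00291). The call of Sars was lost without control replicate 1 (adjusted p = 0.0522). That of Vars was lost without knockout replicate 1 or control replicate 1 (adjusted p = 0.0944 and 0.128), and that of Farsa without knockout replicate 1 or either control array (0.133 to 0.150). The other 3 probe sets of Farsa gave 0.13 to 0.15 and did not pass, and with the mean of all its probe sets the difference was 0.21 and the call was lost (adjusted p = 0.150). Vars was dim, at 122 and 104 in knockout arrays and 66.2 and 80.3 in control arrays.

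Beside Qars, 3 cytosolic genes did not pass the test. Yars, the tyrosine enzyme, had a log2 difference of 0.34 ± 0.11 (adjusted p = 0.0685). Nars, the asparagine enzyme, had 0.23 ± 0.10 (adjusted p = 0.134) with its brightest probe set and 0.47 ± 0.10 with its other one, which passed the test over all probe sets (adjusted p = 0.0132). Tarsl2, a threonine enzyme like Tars, was near background, at 73.5 and 70.8 in knockout arrays and 63.9 and 57.2 in control arrays (0.20 ± 0.10, adjusted p = 0.198). By structural class, 8 of 10 measured class I and 8 of 10 class II cytosolic genes rose, where 13.4% of all genes rose. Each share equalled the 80.0% of all measured cytosolic enzymes. The medians were 0.77 in class I and 0.67 in class II. Eprs, the fused enzyme for glutamate and proline, was counted in class I alone.

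In mitochondria the tyrosine and isoleucine enzymes rose most. Yars2 had 1078 and 893 in knockout arrays, against 535 and 474.5 in control arrays (0.94 ± 0.13, adjusted p = 0.00292), and its other probe set rose by 1.10 ± 0.13. Iars2 had 1241 and 1131 in knockout arrays, against 671 and 619 in control arrays (0.86 ± 0.10, adjusted p = 0.00215). Vars2, the valine enzyme, had 645 and 545 in knockout arrays, against 339 and 332 in control arrays (0.79 ± 0.11, adjusted p = 0.00361). None of these genes overlapped between the groups, where 32.7% of all genes had both knockout arrays above both control arrays.

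Tars2, the mitochondrial threonine enzyme, had 559 and 435 in knockout arrays, against 312 and 281 in control arrays (0.71 ± 0.14, adjusted p = 0.0107). Nars2, the asparagine enzyme, had 783 and 644 in knockout arrays, against 476 and 443 in control arrays (0.61 ± 0.12, adjusted p = 0.0117). In both genes the knockout arrays differed from each other by more than the control arrays did. Both calls were lost without control replicate 2, at adjusted p = 0.0679 and 0.075. Mars2, the methionine enzyme, also rose (0.71 ± 0.16, adjusted p = 0.0197), a call lost without knockout replicate 1 or either control array (0.0534 to 0.104). The dimmest probe sets of Vars2, Nars2 and Mars2 gave 0.27, 0.33 and 0.17, and none of these passed. The other probe set of Tars2 gave a smaller difference of 0.34 ± 0.10, which passed over all probe sets (adjusted p = 0.0447) but not when every gene was given its dimmest probe set (adjusted p = 0.0578).

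The mitochondrial leucine, arginine and tryptophan enzymes fell. Lars2 had 256 and 273 in knockout arrays, against 364 and 394.5 in control arrays (-0.50 ± 0.10, 0.71-fold, adjusted p = 0.0126). Its other probe sets fell as well (-1.11 ± 0.17 and -0.52 ± 0.10). Rars2 had 630.1 and 593 in knockout arrays, against 904 and 765 in control arrays (-0.43 ± 0.12, adjusted p = 0.0325). Wars2 had 147 and 109 in knockout arrays, against 178 and 194 in control arrays (-0.50 ± 0.14, adjusted p = 0.0400), and its dimmer probe set fell by 0.77 ± 0.13 on the log2 scale. The groups did not overlap in these 3 genes, where 29.3% of all genes had both knockout arrays below both control arrays. In each of the 4 fits with 1 array left out, 1 of the 3 passed the test: Wars2 without knockout replicate 1, Lars2 without knockout replicate 2 and without control replicate 1, and Rars2 without control replicate 2.

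The remaining 6 mitochondrial enzymes did not pass the test. Aars2, the alanine enzyme, had 519 and 521 in knockout arrays, against 487 and 541 in control arrays, and lay between the control arrays. Its log2 difference was 0.02 ± 0.10 (95% interval -0.22 to 0.26, adjusted p = 0.925), with -0.02 under quantile normalization. Hars2 (0.39 ± 0.12, adjusted p = 0.0553) was close to the threshold, and Pars2 (0.33 ± 0.15), Cars2 (0.24 ± 0.12), Fars2 (0.18 ± 0.10) and Ears2 (-0.18 ± 0.11) were further from it. Ears2, the glutamate enzyme, was below 0 with all 4 of its probe sets, between -0.25 and -0.11.

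**Figure D4:**
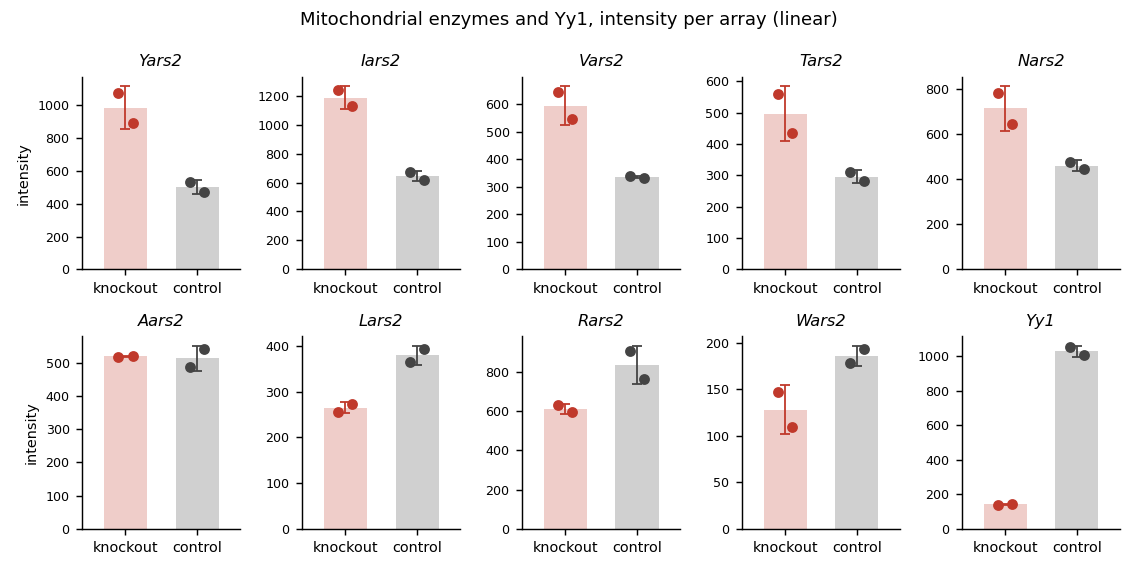
Linear intensity in each knockout and control array for 9 mitochondrial enzymes and Yy1, with bars at the group mean and error bars of 1 SD (n = 2). Yars2, Iars2, Vars2, Tars2 and Nars2 lie higher in both knockout arrays, Lars2, Rars2 and Wars2 lower, and in Aars2 the knockout points, 519 and 521, lie between the control points.

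Set side by side by amino acid, cytosolic and mitochondrial enzymes made 16 pairs, with Eprs and Fars2 used in 2 pairs each. With the probe set that stood for each gene, the cytosolic difference was the larger in 13 pairs. For Cars and Farsa this order depended on the probe set. The dim probe set of Cars gave 0.08, below the 0.24 of Cars2. The other probe sets of Farsa gave 0.13 to 0.15, below the 0.18 of Fars2. In 3 pairs the cytosolic gene rose and the mitochondrial gene fell: Lars and Lars2 (0.79 and -0.50), Rars and Rars2 (0.75 and -0.43), and Wars and Wars2 (0.67 and -0.50). In these pairs the log2 differences of the cytosolic and mitochondrial genes were 1.28, 1.19 and 1.17 apart, and the gap was larger in both knockout arrays than in both control arrays. With 2 arrays against 2, no 2-sided exact permutation test of a gap can give a p below 0.333.

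In 4 pairs both genes rose. With the probe sets used, the isoleucine pair (0.93 for Iars and 0.86 for Iars2) and the threonine pair (0.75 for Tars and 0.71 for Tars2) were close. Their differences were 0.06 and 0.05 apart, and in both pairs the gap overlapped between the groups. The other probe set of Iars2 gave 0.66 and that of Tars2 gave 0.34, so the closeness of the threonine pair depended on the probe set. The methionine pair (1.20 and 0.71) and the valine pair (0.53 and 0.79) also rose together. With the probe sets used, the mitochondrial difference was the larger in the valine, asparagine and tyrosine pairs, by 0.26, 0.38 and 0.60. In the last 2 of these only the mitochondrial gene passed the test. The valine and asparagine orders depended on the probe set. The other one of Vars2 gave 0.27, below Vars. That of Nars gave 0.47 and passed over all probe sets, and that of Nars2 gave 0.33 and did not. The tyrosine pair kept its order with each probe set. The shared genes Gars and Kars, which supply both compartments, rose by 0.70 and 0.58 on the log2 scale.

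**Figure D5:**
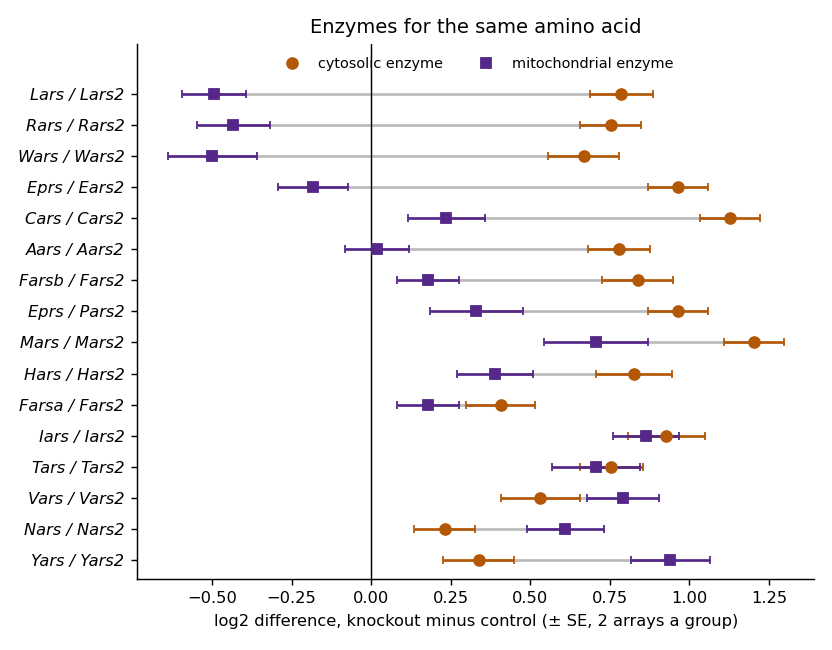
Log2 difference, knockout minus control, with its SE, of the cytosolic enzyme (circles) and the mitochondrial enzyme (squares) for the same amino acid, sorted by the gap between them. The gap is widest for Lars and Lars2, at 1.28, and is turned round for Yars and Yars2, at -0.60.

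The replicates can be compared by the mean of each set. For the cytosolic enzymes the mean log2(intensity + 16) was 10.28 and 10.20 in knockout arrays, against 9.58 and 9.57 in control arrays. The mitochondrial mean was 8.78 and 8.61 in knockout arrays, against 8.43 and 8.40 in control arrays. Knockout replicate 1 thus lay further from the controls than knockout replicate 2 in both sets, and the same array had the lower enterocyte sum of 45060. The part of the lower enterocyte sum in these means was not tested.

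Partners of transfer RNA charging changed in part. Of 16 measured genes in a list of such partners, 7 rose (43.8%) and 1 fell (6.25%), with a median of 0.24. Over all genes 13.4% rose and 11.0% fell. Most of them edit, deliver, export or complete transfer RNAs, but the 16 also hold the scaffold protein Eef1e1 and Sars2, the mitochondrial serine enzyme, which is not among the listed members. Sars2 was dim, at 84.2 and 88.2 in knockout arrays, against 81.0 and 78.0 in control arrays, and did not pass the test (0.10 ± 0.10, adjusted p = 0.533). Pstk, a kinase on the way to selenocysteine, rose by 0.79 ± 0.11, Xpot, the exporter of transfer RNAs from the nucleus, by 0.64 ± 0.11, and Aarsd1, which clears wrongly charged alanine transfer RNA, by 0.33 ± 0.10. Mtfmt, which formylates the mitochondrial initiator, rose by 0.57 ± 0.10, and Tufm, the mitochondrial elongation factor that carries charged transfer RNAs, by 0.43 ± 0.12. For these 5 genes and Eef1e1 the adjusted p lay between 0.00306 and 0.0443. Eef1a1, the corresponding factor of the cytosol, had 9668 and 10058 in knockout arrays, against 9917 and 9566.5 in control arrays (0.02 ± 0.10, adjusted p = 0.923).

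Mitochondria lack a glutamine enzyme in mammals: Ears2 loads glutamate, and an amidotransferase of the subunits Qrsl1, Gatb and Gatc turns it into glutamine on the transfer RNA. These subunits moved apart. Qrsl1 had 982 and 873 in knockout arrays, against 415 and 388 in control arrays (1.18 ± 0.11, adjusted p = 0.000965). Gatb had 520.1 and 491 in knockout arrays, against 719.9 and 668 in control arrays (-0.45 ± 0.10, adjusted p = 0.018). Gatc did not pass the test (0.22 ± 0.12, adjusted p = 0.261), and neither did Ears2.

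Many cytosolic synthetase genes are induced through ATF4 in cultured mammalian cells. Of 13 measured synthetase genes listed as such targets 11 rose, with a median of 0.75, and of the other 7 cytosolic genes 5 rose, with a median of 0.58. Atf4 itself had 2963 and 2973 in knockout arrays, against 3021 and 3040.3 in control arrays (-0.03 ± 0.09, adjusted p = 0.862). ATF4 is controlled mainly at the level of translation, which arrays do not measure, and its part in these differences was not tested. Of 18 genes of the ATF4 pathway 6 rose (33.3%) and 2 fell (11.1%), where 13.4% of all genes rose and 11.0% fell. The share that fell was thus near that of all genes. Asns, asparagine synthetase, had 2400.2 and 2239.5 in knockout arrays, against 826.5 and 869.5 in control arrays (1.43 ± 0.10, adjusted p = 0.000418). The stress-induced Sesn2 rose by 1.32 ± 0.15, the glutathione-degrading Chac1 by 0.85 ± 0.12 and the amino acid transporter Slc7a5 by 0.90 ± 0.16. The serine and glycine enzymes Psat1 and Shmt2 rose by 1.77 ± 0.16 and 1.28 ± 0.11. Slc3a2, the partner chain of Slc7a5, fell (-0.78 ± 0.14), and so did the lipoprotein receptor Vldlr (-0.42 ± 0.10). By limma the adjusted p of these 8 lay between 0.000418 and 0.0253. The pathway's stress genes Ddit3 and Atf3 did not pass, at -0.08 ± 0.13 and -0.00 ± 0.29. Nor did Phgdh, a serine enzyme of the same list as Psat1, at -0.045 ± 0.094.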

How the data were processed

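The authors deposited linear intensities, 1 per probe set and array. The sources used here do not give the summary method, background correction or normalization. Per the labels, biotin-labelled total RNA was hybridised by the Affymetrix procedure. No depth exists for arrays, and their number limits the precision. Of 45101 probe sets 34945 had 1 gene, 932 several and 9160 none listed, and 64 were controls. Symbols were updated through Entrez IDs with a RefSeq gene table (GRCm38.p6), used for names alone.

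Intensities were taken as log2(intensity + 16), a scale that understates the change of dim genes, and no further scaling was applied. For each gene the probe set with the highest mean on this scale was used. limma 3.58.1 in R 4.3.3 compared knockout with control over all 18193 genes (lmFit and eBayes, 7.05 degrees of freedom, no block), with Benjamini-Hochberg adjustment. The fit was also run on simulated data drawn from its own noise model, which hold no differences of RNA quality or cell makeup. Nothing says more of the replicates than that they are biological, and p-values measure the spread between these arrays.

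The members and lists were chosen with earlier results of these data known, and no list was tested. Named array by array were members that fell, the 8 cytosolic and 5 mitochondrial members with the smallest p among those that passed, the scaffold proteins and members with an absolute log2 difference under 0.1. Every partner gene that passed was named, and from the ATF4 pathway Atf4 and the 6 genes with the smallest p. Slc7a5, Vldlr, Ddit3, Atf3, Phgdh, Gatc, Eef1a1, Sars2 and the members beyond the rule were named after their values were seen. Mars2 was given without its arrays. 15 alternatives were run.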

Additional observations from a re-analysis of the deposited data

How the results depend on the processing

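All 24 members that rose kept a difference above 0 in each of the 15 alternatives in which they were tested. For many alternatives this was fixed in advance. In all 24 both knockout arrays lay above both control arrays, so leaving out 1 array could not turn a sign. A replicate block or leaving out dim genes does not alter a gene's difference. Members that passed as higher numbered between 18 and 26, and cytosolic enzymes kept within 1.5 times of their count of 16 in every alternative. The falls were less firm: with a pseudocount of 1 only 1 member, Lars2, was lower, and with any 1 array left out also 1 (Lars2, Rars2 or Wars2, depending on the array). Mitochondrial enzymes that rose numbered 2 when each gene's dimmest probe set was used, and 3 to 8 with 1 array left out. The cytosolic median was 0.651 with the dimmest probe set and 0.684 with the mean of all probe sets. The mitochondrial median of 0.33 was 0.165 with the dimmest probe set and 0.249 to 0.514 with 1 array left out, and its SD between the knockout arrays was 0.188, against 0.036 for the cytosolic median. Signs turned only for genes that did not pass the test: Qars (0.013) and Aars2 (-0.023) under quantile normalization, Cars2 (-0.324) with its dimmest probe set, and Aars2 with 1 array left out (-0.055 to 0.091). The count over all genes was 4439, and 2223 to 4366 with 1 array left out. The deviations of samples with the same replicate number correlated at r = 0.097 over all genes. That value cannot settle whether such samples shared more than the number. With a replicate block 4881 genes passed, and 26 members were higher and 3 lower, Yars and Hars2 being added.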
